A study of Drosophila melanogaster with 4 samples.

Results

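The X chromosome of third-instar Drosophila melanogaster larvae was examined for regions enriched in ubiquitinated histone H2B, using the region lists deposited from chromatin immunoprecipitation and sequencing. A region counted as a member when it was listed on X as enriched and its midpoint lay at or below base 20422827, which leaves out the 2 Mb next to the centromere. In the list made for the replicate set as a whole, called the joint list here, 1053 of 5627 enriched regions met this rule (18.7%), with 978 of 5135 in replicate 1 and 946 of 5150 in replicate 2. A further 41 joint X regions lay closer to the centromere and were left out. The rule used position alone, so widths, scores and overlaps between lists were free to vary. It was set with earlier results of these data known, among them the coverage and score of X against the autosomes.

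The larvae were wild type, of the Oregon-R line kept for modENCODE (Oregon-R-modENCODE), collected from bottles of a culture kept in population cages. The labels give their stage, and neither their sex nor the number of animals in a sample. Chromatin of 2 samples was immunoprecipitated with NRO3, a mouse monoclonal antibody against the site where ubiquitin joins human histone H2B. The other 2 samples were input DNA and were not analysed here. Whole larvae hold many tissues, and no tissue was separated. Nothing in the labels says that replicates 1 and 2 came from separate cultures, and the differences between these lists may be technical only.

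Ubiquitin is attached to histone H2B by the Bre1 ligase together with the Rad6 conjugating enzyme, and it is removed by a deubiquitinating module of the SAGA complex that holds Nonstop in flies. The mark is placed over the bodies of genes as RNA polymerase II transcribes them. The fly X is also the chromosome of dosage compensation: in males, which carry a lone X, the MSL complex binds over active X genes and raises their output. The lists hold no gene names, the available gene table uses release 6 and the regions are on FlyBase release 5, so regions are described by position and no gene or sequence is given.

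The mark covered a large minority of X in separate regions of a few kilobases. Covered share was 27.0% ± 1.02 (SD, n = 2) of the 20.4 Mb of X considered, at 26.2% in replicate 1 and 27.7% in replicate 2. The joint list covered 32.1%, or 6.55 Mb. The number of regions per Mb was 47.1 ± 1.11 (SD, n = 2), against 51.6 in the joint list. X regions had a median width of 3.44 kb ± 0.0431 (SD, n = 2) in the replicates. In the joint list the median was 3.55 kb, and the middle 50% ran from 1.96 to 6.88 kb. Coverage in the joint list was higher than in either replicate, by more than the replicates differed.

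A small number of wide regions held much of the marked X sequence. In the joint list the 272 regions under 2 kb made up 25.8% of X regions and held 6.17% of the covered bases. The 57 regions of 20 kb or more made up 5.41% of X regions and held 30.0% of the bases. The autosome arms, pooled under the same limits, were much alike in the joint list. There, regions under 2 kb made up 24.3% of regions and held 5.47% of bases. Those of 20 kb or more made up 5.41% and held 29.1%, so this concentration was not particular to X. Regions of 10 kb or more held 49.3% of covered X bases in the joint list, 41.7% in replicate 1 and 46.8% in replicate 2. Replicates 1 and 2 held 35 and 45 X regions of 20 kb or more, fewer than the joint list.

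**Figure D1:**
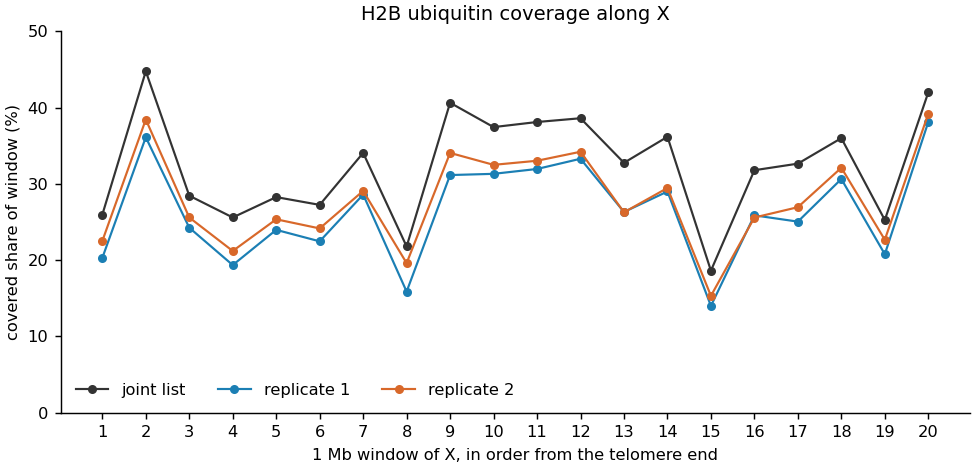
Covered share (%) of each full 1 Mb window of X, in order from the telomere end, in the joint list and in replicates 1 and 2; points are single values joined by lines. Coverage ran from 18.6% to 44.7% in the joint list, and the lines of the replicates run close together below it.

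The mark was uneven along X. Across 20 full 1 Mb windows of the joint list, coverage had a median of 32.7% and a mean of 32.3% ± 7.03 (SD over windows). The most covered window was 1 to 2 Mb, at 44.7% in the joint list, 36.1% in replicate 1 and 38.4% in replicate 2. Next came 19 to 20 Mb at 42.0% and 8 to 9 Mb at 40.6%. In the replicates the order of the leading windows was turned, with 19 to 20 Mb the more covered at 38.1% and 39.2%. The step from 1 window to its neighbour averaged 8.18 percentage points.

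The least covered windows lay between better-covered ones. The window from 14 to 15 Mb held 18.6% in the joint list, 14.0% in replicate 1 and 15.3% in replicate 2. That from 7 to 8 Mb held 21.8%, 15.9% and 19.6% in the same lists, and that from 18 to 19 Mb held 25.3%, 20.8% and 22.7%. Windows 7 to 8 Mb and 18 to 19 Mb stand directly beside 8 to 9 Mb and 19 to 20 Mb, which are among the most covered in the joint list. In replicates 1 and 2 the window from 11 to 12 Mb (33.3% and 34.2%) stood above 8 to 9 Mb (31.2% and 34.1%). Likewise 3 to 4 Mb (19.4% and 21.2%) stood below 18 to 19 Mb there. Of the 3 most covered and the 3 least covered windows, 2 each were shared by all 3 lists.

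In the joint list the coverage of a window went with its number of regions and showed little relation to their median score. Coverage is the summed width of the regions, so part of the relation to their number is built in. The median score counts narrow and wide regions alike, so it does not speak for the covered bases. Over the 20 windows Pearson's r between coverage and the number of regions was 0.651, and between coverage and the window's median score 0.0298, given as descriptions of neighbouring windows of a single list. Regions per window ran from 33 to 71. The window from 15 to 16 Mb held the most regions, 71, and had none above 19.6 kb, with a coverage of 31.8%. The window from 19 to 20 Mb held 49 regions with a median width of 4.90 kb and reached 42.0%. The telomere-side 10 windows averaged 31.4% ± 7.44 and the centromere-side 10 windows 33.2% ± 6.87 (SD over windows) in the joint list. The telomere side and the centromere side averaged 25.3% and 27.5% in replicate 1, and 27.2% and 28.5% in replicate 2, a difference that was not tested.

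At finer scale the contrast was wider. In 250 kb windows, joint coverage ran from 0% at 7.25 to 7.5 Mb to 74.3% at 19.25 to 19.5 Mb. Replicates 1 and 2 covered 71.4% and 72.1% of the window at 19.25 Mb, and neither had a region in that at 7.25 Mb. Windows of 69.3% at 8.75 to 9 Mb and 69.2% at 1.75 to 2 Mb followed, with 26 and 32 regions. The window at 19.25 Mb held 11 regions, a domain of 85.3 kb among them.

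Regions stood close to each other. The median distance between neighbouring X regions was 2.17 kb in the joint list, 2.68 kb in replicate 1 and 2.95 kb in replicate 2. Of the distances in the joint list 48.2% were under 2 kb and 22.1% were 10 kb or more. In the joint list 764 of 1053 regions (72.6%) had a neighbour within 2 kb, and 27 stood 20 kb or more from both neighbours. Medians of those 27 were 2.95 kb in width and 0.724 in score, against 3.48 kb and 0.620 for the regions with a close neighbour. In replicate 1 the medians of the isolated regions were 2.78 kb and 0.857, against 3.59 kb and 0.839. In replicate 2 they were 2.99 kb and 0.797, against 3.64 kb and 0.836, so the order of the scores turned between lists.

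Joining regions less than 2 kb apart turned the 1053 joint regions into 545 blocks, of which 256 held several regions and 15 reached 50 kb. The longest block spanned 9270298 to 9394056, 124 kb long, with 3 regions of the joint list, 10 of replicate 1 and 4 of replicate 2. The second spanned 4996920 to 5118526, 122 kb, with 4, 9 and 8 regions in the same lists. The third, at 14723324 to 14818844, spanned 95.5 kb with 11, 14 and 11 regions. It lies inside the least covered 1 Mb window. Joint regions covered 93.2% of it, and replicate regions 78.6% and 77.2%.

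Long stretches without any region interrupted X. Gaps of at least 100 kb numbered 33 in the joint list, 37 in replicate 1 and 36 in replicate 2. They added up to 5.20 Mb in the joint list, or 25.5% of the X sequence considered, and to 29.8% and 28.8% in replicates 1 and 2. The longest was 322 kb at 14152065 to 14474273. The others among the 5 longest were 265 kb at 7236831 to 7502151, 251 kb at 19800111 to 20050969, 233 kb at 18031805 to 18264897 and 207 kb at 4599459 to 4806195. Replicate 1 had no region in any of these 5, while replicate 2 had 2 in the second and 1 in the fifth. Of all 33 gaps, 23 were empty in both replicates. Sequence that reads cannot be assigned to was not measured, so an empty stretch and an unreadable one cannot be told apart.

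The widest X regions were broad domains whose scores ran from below to well above the upper quartile of X regions, 0.989 in the joint list. Among joint regions overlapped in both replicates, the widest was 114 kb at 9276334 to 9390258, with a score of 1.04 in the authors' own unit, which is not stated. The authors' score is a single value per region and is used here within a list. Next came 90.6 kb at 12097532 to 12188128 (score 1.55) and 85.3 kb at 19247094 to 19332372 (score 1.82). The 10 widest were 43.0 to 114 kb wide with scores of 0.944 to 1.82. At least 84.2% of the bases of each were covered in replicate 1 and at least 91.8% in replicate 2. Some lay next to each other: 4996920 to 5058850 (61.9 kb) and 5059806 to 5105344 (45.5 kb) were separated by 0.955 kb and belong to the same block.

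**Figure D2:**
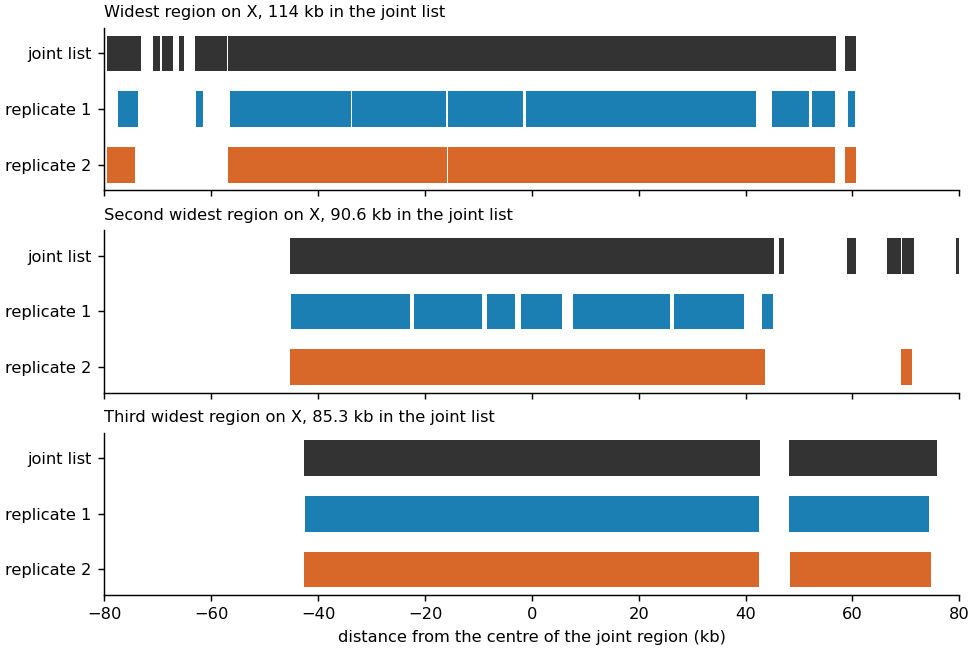
Regions of the joint list, replicate 1 and replicate 2 (rows, top to bottom) around the 3 widest X regions, against distance in kb from the centre of the joint region. The first was called as 8 pieces in replicate 1 and 3 in replicate 2, the second as 7 and 2, and the third as 1 in each.

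Most broad domains that were unbroken in the joint list were divided in at least 1 replicate, more often in replicate 1. The domain at 9276334 was divided into 8 regions in replicate 1 and 3 in replicate 2, the largest being 34.2 kb and 58.0 kb. Both breaks of replicate 2 there, at most 235 bp long, coincided with breaks of replicate 1. The domain at 12097532 was divided into 7 regions in replicate 1 and 2 in replicate 2, with no break in common. Its score was 1.55 in the joint list, 2.08 for the leading 22.4 kb piece of replicate 1 and 1.74 for the 84.7 kb piece of replicate 2. Scores are not compared between lists. The domain at 19247094 was whole everywhere, 85.0 kb in replicate 1 and 85.2 kb in replicate 2, with scores of 1.75 and 1.87.

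Over all 57 joint X regions of 20 kb or more, 20 were a single region in replicate 1, 30 in replicate 2 and 17 in both. Replicate 1 had more pieces in 27 and replicate 2 in 6. Inside them, replicate 1 had 94 breaks with a median length of 584 bp, and replicate 2 had 49 with a median of 271 bp. In all, 13 breaks of each list coincided, which is 13.8% of those of replicate 1 and 26.5% of those of replicate 2. Most breaks were therefore found in a single replicate. Pieces and breaks were counted on X alone, so this division is not shown to be particular to X.

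The highest-scoring X regions were narrower than the domains and less often divided in the replicates. Among joint regions overlapped in both replicates the first was at 6761904 to 6774888 (13.0 kb), with a score of 2.09 in the joint list, 2.13 for its largest piece in replicate 1 and 2.28 in replicate 2. The second was at 18824066 to 18852000 (27.9 kb), with scores of 2.07, 1.88 and 2.20 in the same lists. The third was at 9228114 to 9252308 (24.2 kb), with scores of 1.96, 2.09 and 2.09. It ends 24.0 kb before the widest domain begins, which scored 1.04. None of the 10 highest scores was among the 10 widest regions.

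The other members of that group were 18529746 to 18541904, 11516664 to 11528494, 16850766 to 16862958, 15706188 to 15720540, 17547286 to 17563876, 19781236 to 19800110 and 15770506 to 15781368, with scores of 1.86 to 1.91. All 10 were 10.9 to 27.9 kb wide. In replicate 2 all 10 were single regions, and in replicate 1 so were 8. The region at 19781236 ends where the third longest gap begins, so a region of very high score borders 251 kb without any.

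The single highest score on X, which was also the highest of the whole joint list, was of a different kind. It was 3.22, for a region of 1001 bp at 12393414 to 12394414, and it overlapped no region of either replicate. The nearest region of replicate 1 lay 10.7 kb away and that of replicate 2 22.1 kb away. Of the other X regions under 2 kb, the highest scored 0.809. The width of 1001 bp is the smallest in the joint list, shared by 34 regions, 10 of them on X. It was named after its value was seen.

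Regions found in both replicates were compared next. On X, 900 of 978 regions of replicate 1 (92.0%, Wilson 95% interval 90.2 to 93.6) overlapped a region of replicate 2 in 1 bp or more, against 93.2% of replicate 1 regions over all sequences. In the other direction 833 of 946 did (88.1%, interval 85.8 to 90.0), against 88.2% over all sequences. The intervals cover counting error only. The Jaccard index on X, bases shared by the replicates over bases in either, was 83.8%, against 84.4% to 86.6% on the autosome arms (lowest on 2R). X had the lowest value of the 5 arms, and the difference was not tested.

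**Figure D3:**
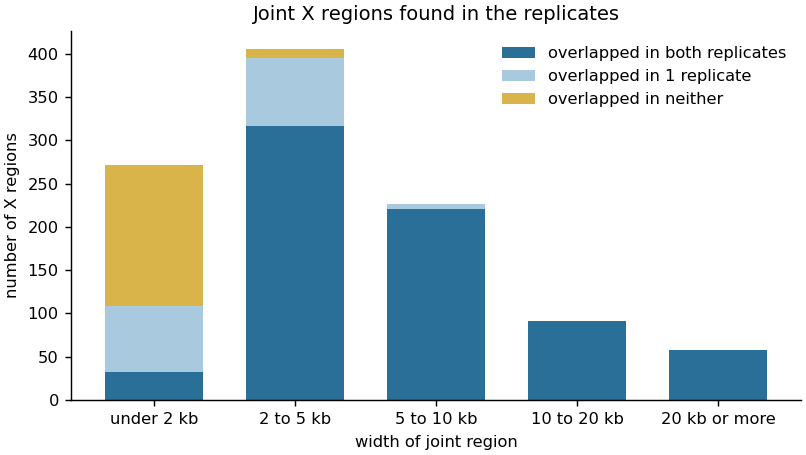
Number of joint X regions (vertical axis) in 5 width classes (horizontal axis), divided by whether they overlapped a region in both replicates, in 1 or in neither. Under 2 kb 32 of 272 were overlapped in both, and from 10 kb upwards all 148 were.

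Overlap followed width. Of the joint X regions 718 of 1053 (68.2%) overlapped both replicates, against 70.0% over all sequences, and 175 (16.6%) overlapped neither, against 16.1%. Under 2 kb only 32 of 272 (11.8%) were in both and 164 were in neither. From 2 to 5 kb 317 of 406 (78.1%) were in both, from 5 to 10 kb 221 of 227 (97.4%), and from 10 kb upwards all 91 and 57. The 175 regions seen in neither replicate were 1.32 kb wide at the median, with 3.85% of covered X bases, against 5.11 kb and 90.3% for those in both. A wide region meets a rule of 1 bp more readily than a narrow one, and the part of this in the result was not tested. Overlap by width class was counted on X alone, so the pattern is not shown to be particular to X.

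Edges were compared only where regions of replicates 1 and 2 were each other's best match, and most of these pairs had both edges within 500 bp. Over the 788 X pairs that were each other's best match, the median distance between starts was 172 bp and between ends 196 bp. Both edges lay within 500 bp in 483 pairs (61.3%). The replicate 2 region was the wider in 484 of 788, with a median ratio of widths of 1.02. Across these pairs, which are not replicates of each other and share their samples, Spearman's rho between the scores was 0.911. It was 0.438 for the 112 pairs under 2 kb in replicate 1, 0.758 for the 374 of 2 to 5 kb, and 0.894 to 0.926 above that. Score ranges within a class were not matched, and a narrow range lowers rho.

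**Figure D4:**
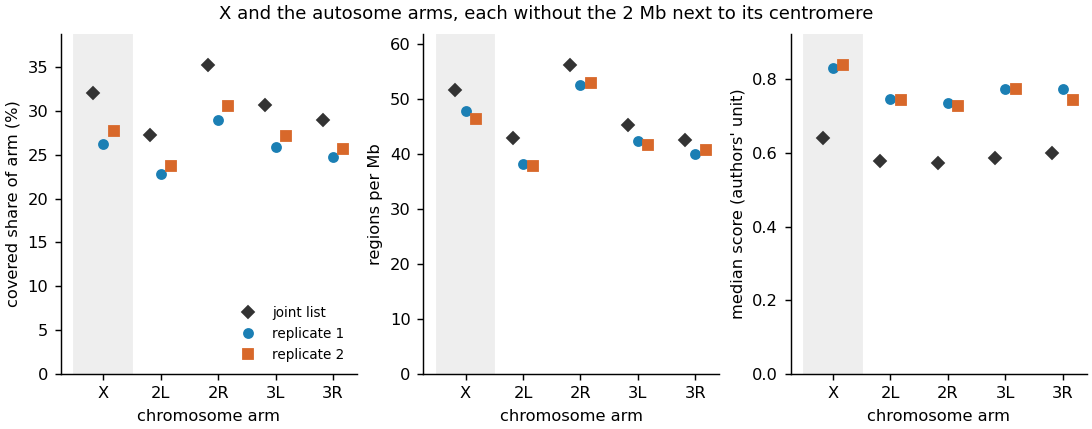
Covered share (%), regions per Mb and median score (authors' unit) on X (left, shaded) and on the autosome arms 2L, 2R, 3L and 3R, each without the 2 Mb next to its centromere; points are single values of the joint list and of replicates 1 and 2. X has the highest median score in all 3 lists and stands second to 2R in coverage and in regions per Mb.

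X was then set against the 4 autosome arms under the same limits. In coverage X lay within the range of the arms. Replicate means were 27.0% ± 1.02 on X, against 29.8% ± 1.15 on 2R, the most covered arm, 26.5% ± 0.867 on 3L, 25.2% ± 0.646 for 3R and 23.3% ± 0.687 for 2L (SD, n = 2 each). X minus the pooled autosome arms was 0.890 percentage points ± 0.197 (SD, n = 2), at 0.751 in replicate 1 and 1.03 in replicate 2, and it was 1.70 in the joint list. It was 3.04 without 2R and 0.740 without 2L. An exact permutation test by sign over 2 replicates cannot give a two-sided p under 0.5, so it was not run, and the comparisons of X with the arms are given with their spread alone.

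Regions on X were dense, second to 2R, with median widths within the range of the arms. Regions per Mb were 47.1 ± 1.11 on X, between 52.6 ± 0.295 on 2R and 41.9 ± 0.533 on 3L (SD, n = 2 each). Median width on X was 3.41 kb in replicate 1, within the 3.24 to 3.62 kb of the arms, and 3.47 kb in replicate 2, within 3.36 to 3.61 kb. The share of covered bases in regions of 10 kb or more was the lowest of the 5 arms on X in the joint list (49.3%, against 51.3% to 55.0%) and in replicate 1 (41.7%, against 42.7% to 49.1%). In replicate 2 it was 46.8% on X, and 2R was lower at 45.8%. Regions of 20 kb or more were nevertheless the most frequent on X in the joint list, at 2.79 per Mb, against 2.14 to 2.75 on the arms. In replicate 1 they numbered 1.71 per Mb of X, against 1.52 to 2.16, and in replicate 2 2.20, against 1.71 to 2.30. Long gaps lay within the range of the arms, at 1.81 and 1.76 per Mb of X in replicates 1 and 2, against 1.31 to 2.14 and 1.25 to 2.14 on the arms.

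Scores stood higher on X than on each autosome arm in each list. The median was 0.830 on X in replicate 1, against 0.737 to 0.773 on the arms, and 0.839 in replicate 2, against 0.729 to 0.773. In the joint list it was 0.642, against 0.574 to 0.601. X minus the pooled autosome arms, taken within each list, was 0.0709 in replicate 1, 0.0939 in replicate 2 and 0.0553 in the joint list. The replicate mean was 0.0824 ± 0.0162 (SD, n = 2), a spread that may be technical only. Among the upper 50% of scores of the joint list the difference of medians turned to -0.00773. The unit of the score is not stated, so the size of this difference cannot be put as a fold.

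**Figure D5:**
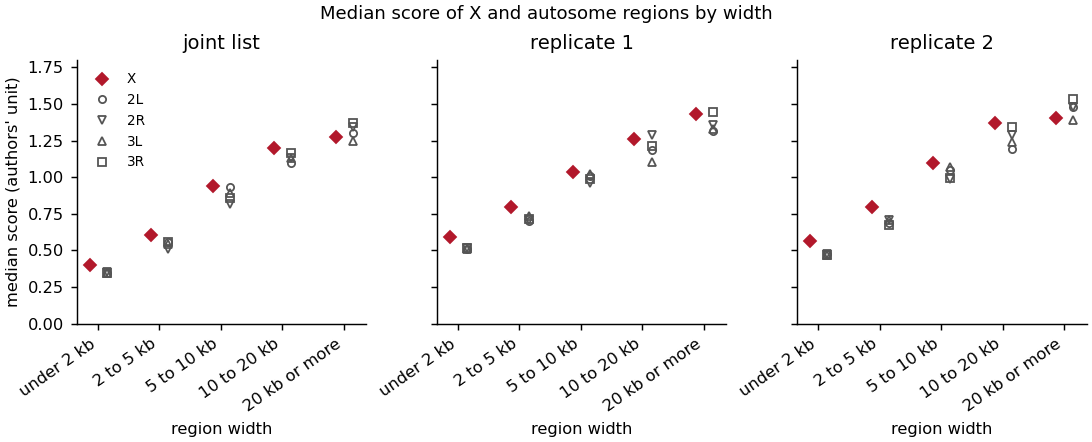
Median score (authors' unit) by width class in the joint list and in replicates 1 and 2, for X (diamonds, left) and for 2L, 2R, 3L and 3R (open symbols, right). X stands above all 4 arms in 11 of the 12 combinations of list and class under 20 kb, and among the arms at 20 kb or more. The joint list was made for the replicate set as a whole, so these combinations are not independent.

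The difference was seen in narrow and middle-sized regions. Under 2 kb the X median was 0.594 in replicate 1 and 0.564 in replicate 2, against 0.508 to 0.517 and 0.470 to 0.478 on the arms. X minus the pooled autosome arms was 0.0858 ± 0.00743 under 2 kb, 0.0907 ± 0.0177 from 2 to 5 kb, 0.0556 ± 0.0190 from 5 to 10 kb and 0.0811 ± 0.0420 from 10 to 20 kb (SD, n = 2 each). At 20 kb or more it was 0.00685 ± 0.0930 (SD, n = 2), positive in replicate 1 at 0.0726 and negative in replicate 2 at -0.0589 and in the joint list at -0.0425. The widest class held 35 and 45 X regions in the replicates, so its medians rest on few. Whether the difference itself varies with width was not tested.

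The low end of the score distribution stood above that of every arm on X, and the high end stood near theirs. The value below which 5% of regions fell was 0.523 on X in replicate 1, against 0.442 to 0.471 on the arms, and 0.492 in replicate 2, against 0.410 to 0.417. The value below which 95% fell was 1.55 on X in replicate 1, against 1.49 to 1.55 on the arms, and 1.69 in replicate 2, against 1.61 to 1.68. In the joint list the lower value was 0.335, against 0.285 to 0.295, and the upper 1.54, within the 1.49 to 1.55 of the arms. X held 22.2% of the upper 50% of scores in replicate 1 and 21.8% in replicate 2, with 19.0% and 18.4% of all regions. Of the top 5% X held 21.4% and 22.1% in replicates 1 and 2, and 19.9% in the joint list, with 18.7% of all regions there. In the top 10% and the top 25% its share was also above its share of all regions in each list. In the top 1% alone of these cuts its share was smaller, at 6 of 51 regions (11.8%) in replicate 1 and 7 of 52 (13.5%) in replicate 2. In the joint list it was 5 of 56 (8.93%), the region of 1001 bp among them. The shares of the top 1% rest on 5 to 7 X regions. Reads, input signal and the rule that set the score are not in the lists, and their part in these score differences was not tested.

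Near the limit the members ended in a cluster beside sparse sequence. The last 2 joint regions inside it lay at 20386934 to 20388874 (score 0.423) and 20391830 to 20396474 (score 1.08). The first 2 outside lay at 20528684 to 20532806 (score 0.612) and 20900812 to 20903608 (score 0.851). All 4 were overlapped in both replicates.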

How the data were processed

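Alignment used Bowtie 0.12.7, as stated per the submitters' processing notes. The genome build is FlyBase release 5, per the file headers. The authors deposited 3 region lists, those of replicates 1 and 2 and a joint list for the replicate set. Each region carries the score deposited by the authors, whose unit is unstated. The region caller, its threshold, the use of the inputs and the way the joint list was made are not stated there. Read counts were not part of the lists, so depth is unknown.

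Members were taken by midpoint, and coverage counted each base once. Autosome arms were limited in the same way. A region listed as depleted, on 3L, was left out. Values were computed with Python 3.11.15, numpy 2.4.6 and scipy 1.17.1 and drawn with matplotlib 3.10.9, and the interval arithmetic was checked on simulated regions. Regions were named by rule: the 10 highest scores and 10 widest regions overlapped in both replicates, the 5 longest gaps, the 3 most and least covered 1 Mb windows, the 3 longest blocks and the 2 regions on each side of the limit. The single 250 kb windows and the region at 12393414 were chosen, and breaks within domains, isolated regions and score percentiles added, after values were seen. The members, limits and rules were chosen with earlier results of these data known, which include the coverage and score of X against the autosomes and most of the widest regions. Alternatives were each replicate alone, the upper 50% of scores, merging under 500 bp, the whole sequence, a reciprocal overlap of 50%, single arms left out and other windows or widths.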

Additional observations from a re-analysis of the deposited data

How the results depend on the processing

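Of 56 alternative values 25 moved by less than the replicate spread (counts by less than 1.5 times, the overlap share within its Wilson interval), 29 moved by more (any change in the Jaccard index or rho counted) and 2 reversed. With the upper 50% of scores the joint list held 579 X regions, coverage was 26.9%, median width 6.11 kb, the share of bases in regions of 10 kb or more 58.9%, the Jaccard index of the replicates (shared over all covered bases) 81.2%, the span of 1 Mb windows 24.1 points, rho 0.888, and X minus autosome coverage 2.57 points. The score difference, X minus autosome arms, reversed to -0.00773 there and to -0.0425 in regions of 20 kb or more, and the cause was not tested. The upper 50% were cut on the score itself, so the first of these values cannot show whether high scores differ. Merging regions under 500 bp apart gave a median width of 4.56 kb and 60.5% of bases in regions of 10 kb or more. On the whole sequence coverage was 30.0%, the Jaccard index 83.5%, rho 0.910 and X minus autosome coverage 0.773 points. A reciprocal overlap of 50% left 73.9% of replicate 1 regions overlapped. X minus autosome coverage was 0.740 without 2L, 3.04 without 2R and 1.14 without 3R. Windows of 250 kb spanned 74.3 points. Taking each replicate alone gave coverage of 26.2% to 27.7%, median widths of 3.41 to 3.47 kb, broad shares of 41.7% to 46.8%, coverage differences of 0.751 to 1.03 points, score differences of 0.0709 to 0.0939 and window spans of 23.9 to 24.1 points. The score differences in regions under 2 kb or of 20 kb or more, and rho under the upper 50% and the whole sequence, were added after seeing the data. No paired analysis was possible because none of the results comes from a test; differences between X and the autosome arms were taken within each list. Depth is unknown, and the part of missing reads in regions absent from a replicate was not tested.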
